A study of Homo sapiens with 24 samples.

Results

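The 33 proteasome genes described here encode the constitutive subunits of the 26S proteasome and its assembly chaperone PSMD5, namely PSMA1 to PSMA7, PSMB1 to PSMB7, PSMC1 to PSMC6, 12 PSMD genes and ADRM1. They were chosen by Ensembl identifier from the 20426 genes that all 24 libraries list. Their measured values were not used in the choice, although earlier results of these data were known. Of the 33, 31 passed the filter on low counts and were tested among 11938 genes.

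The libraries came from 6 cultured cell populations, each with 2 libraries of ribosome-protected fragments (RPF, footprints) and 2 of INPUT RNA. HCT116, HCT15 and SW620 are colon cancer lines labelled wild type. A further population of HCT15 was labelled as overexpressing COPS7B, a subunit of the COP9 signalosome, and another, titled PLVX and labelled wild type, is called the vector line here. 841CON, the population the design text sets the cancer lines against, was labelled as wild-type normal colon epithelial cells. All 6 populations received cycloheximide at 100 µg/mL for 10 min before lysis, so no group was free of it. Per the labels, culture media differed between HCT116, HCT15, SW620 and 841CON, and SW620 was grown in an air incubator, so line and culture condition cannot be told apart. The labels do not say whether the HCT15 forms were clones or pools, nor which promoter drove COPS7B. The level of COPS7B and the markers of colon epithelium, fibroblasts and leukocytes were not analysed here, because the tables used here do not pair their symbols with the identifiers of the files.

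The proteasome degrades proteins that carry ubiquitin chains. Its 20S core stacks outer alpha rings on inner beta rings, and the beta subunits PSMB5, PSMB6 and PSMB7 carry the chymotrypsin-like, caspase-like and trypsin-like sites. The 19S cap binds ubiquitin through receptors, removes the chain with the deubiquitinase PSMD14, unfolds the substrate with the PSMC ATPases and opens the alpha ring. Subunits are held in fixed proportions, and the transcription factor NFE2L1 is known to raise their genes together when proteasome activity is short, through the antioxidant response element.

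The core of that element, TGACNNNGC, was searched on both strands in the 250 bases before each annotated start in RefSeq (GRCh38.p14), where 28 of the 33 genes had a window. It was present for 7 of the 28 (25%, against 13.2% of 27305 genes), PSMA4, PSMB3, PSMC5, PSMD3, PSMD5, PSMD12 and ADRM1. By window it was in 8 of 35 (22.9%, against 10.9% of 35116 windows of all genes), the ADRM1 site being counted in 2 overlapping windows. PSMA4 held it in 1 of 3 windows and PSMC5 in 1 of 2. PSMA7, PSMB1, PSMB6, PSMB7 and PSMD4 had no window in the table. The matches are printed 5′ to 3′ on the gene's strand with the motif in capitals, the PSMC5 motif being in reverse orientation, to show what the members with a match share.
PSMA4, chr15:78540650-78540678, plus strand: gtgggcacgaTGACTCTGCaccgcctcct
PSMB3, chr17:38752627-38752655, plus strand: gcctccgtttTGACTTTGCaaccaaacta
PSMC5, chr17:63827654-63827682, plus strand: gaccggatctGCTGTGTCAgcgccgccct
PSMD3, chr17:39980760-39980788, plus strand: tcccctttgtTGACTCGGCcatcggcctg
PSMD5, chr9:120843038-120843066, minus strand: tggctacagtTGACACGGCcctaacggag
PSMD12, chr17:67366724-67366752, minus strand: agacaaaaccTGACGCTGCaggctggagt
ADRM1, chr20:62302749-62302777, plus strand: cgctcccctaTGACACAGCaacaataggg
A match describes these letters only. The 33 genes lie on 13 chromosomes, with 6 on chromosome 17 and 5 on chromosome 14.

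Depth limited some values. INPUT tables list 60623 genes and RPF tables the 20426 shared ones. Gene counts summed to between 1237231 and 9105954 per INPUT library, of which 960395 to 6596429 lay in the shared genes, and to between 84262 and 4679279 per RPF library, and the lowest and highest sums over the 33 genes were 2256 and 29610 in INPUT and 190 and 77234 in RPF. Reads carried no molecular identifiers, so intervals on counts cover counting error only. The replicates of 841CON INPUT lay more than 2-fold apart for 13 of the 31 tested members and those of SW620 RPF for 14. In 4 replicate pairs, both of HCT116 and the RPF pairs of 841CON and COPS7B, counts differed by under 2 times sampling noise, as a chi-square statistic per gene. The labels do not say that replicates were separate cultures, and a p-value here rests on differences between library pairs that may be technical. Statements below that groups did not overlap compare 2 libraries with 2, and the share of all genes without overlap was not computed. The libraries labelled COPS7B stood apart from the other HCT15 libraries. Between the COPS7B and vector lines 459 genes had at least 10 scaled counts per 1000000 counts in the 11938 tested genes (CPM) in both INPUT libraries of COPS7B and at most 0.5 CPM in both of the vector line, and 138 the reverse. Between the vector line and parental HCT15 the numbers were 8 and 1, and between HCT116 and HCT15, which are different lines, 225 and 163. What this means for the labels was not tested, and results that rest on these libraries are given below as those of the libraries labelled COPS7B.

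Of the counts in the shared genes, the 33 took 1.54% ± 0.16 of footprints in HCT15 and 0.894% ± 0.0092 in HCT116, against 0.6355% ± 0.0011 in 841CON (SD, n = 2 each). SW620 stood at the other end, with 0.270% ± 0.063 of footprints, below both 841CON libraries. Of INPUT counts in the shared genes they took 0.743% ± 0.0061 for HCT116, 0.673% ± 0.020 for HCT15 and 0.316% ± 0.11 for SW620, against 0.329% ± 0.053 for 841CON. The choice of denominator matters here, since over all genes that the INPUT tables list the shares were 0.539% ± 0.0098 for HCT116, 0.531% ± 0.023 for HCT15 and 0.176% ± 0.053 for SW620, against 0.258% ± 0.011 for 841CON. Over the shared genes the SW620 libraries lay on both sides of those of 841CON, and over all listed genes both lay below. The libraries labelled COPS7B gave 0.767% ± 0.0045 of footprints and 0.459% ± 0.0064 of INPUT in the shared genes, against 1.03% ± 0.035 and 0.589% ± 0.11 in the vector line. In the vector line itself the footprint share lay below that of parental HCT15 in both libraries. In bulk libraries such as these, fewer cells that express a gene and less RNA per cell cannot be told apart.

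**Figure D1:**
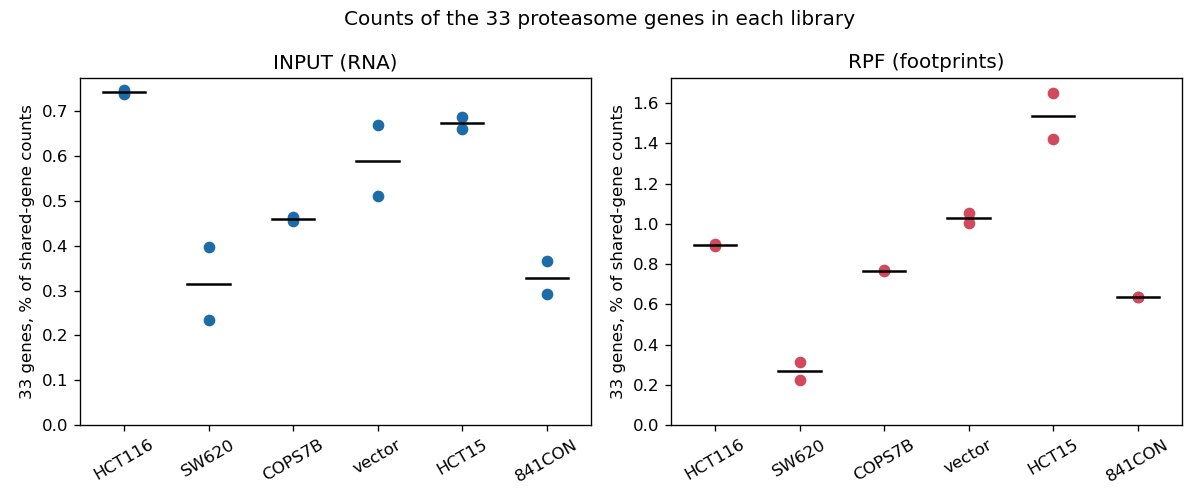
Counts in the 33 proteasome genes as a percent of the counts in the 20426 shared genes (y axis) in each INPUT and RPF library, by cell population, with points for single libraries and bars for means of 2. HCT15 footprint libraries lie highest, at 1.42% and 1.65%, and SW620 footprint libraries lowest, at 0.226% and 0.314%.

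In HCT116 the RNA of the proteasome genes was higher than in 841CON, while their footprints moved in both directions. Translational efficiency (TE, footprints relative to RNA) was called lower for 12 of 31 members. The shares called lower were 30.6% of all genes tested and 18.7% of the abundant genes defined below. At the RNA level 17 of 31 members rose and 0 fell in edgeR's quasi-likelihood test, calls being those with a Benjamini-Hochberg adjusted p under 0.05 over all genes, where 19% of all genes rose and 21% fell. The members' median log2 change was 0.96, against −0.04 over all genes tested. At the footprint level 4 rose and 7 fell (22.6% and 36.7% of all genes), with a median of 0.12 against −0.25. TE rose for 1 and fell for 12 (15.1% and 30.6% of 8502 genes tested), with a median of −1.03 against −0.59. A further background, added after seeing the data, was the 2985 genes with the highest mean footprint level, called abundant genes here, which held 30 of the tested members. Among them 27.7% rose and 16% fell for RNA, 29.4% and 24.2% for footprints and 12.5% and 18.7% for TE, with medians of 0.30, 0.18 and −0.18. Without scaling by trimmed means (TMM) the footprint split was 8 higher and 5 lower, so the larger side of the footprint calls is not settled.

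All 7 beta-ring RNAs rose in HCT116, by log2 changes of at least 1.33. Values here are CPM after scaling by trimmed means, given for replicates 1 and 2. PSMB7 RNA stood at 248 and 265 CPM in HCT116, against 80.0 and 62.1 CPM in 841CON, a log2 change of 1.86 (SE 0.35, edgeR adjusted p = 0.000323). PSMB5 (ENSG00000100804) RNA stood at 362 and 442 CPM in HCT116, against 119.9 and 168 CPM in 841CON (log2 1.47, SE 0.47, edgeR adjusted p = 0.0168). PSMB6 RNA stood at 416 and 410.1 CPM in HCT116, against 87.6 and 224 CPM in 841CON (log2 1.39, SE 0.41, edgeR adjusted p = 0.00998). For each of these catalytic subunits both HCT116 libraries lay above both 841CON libraries. The PSMB5 and PSMB6 calls were lost without 841CON INPUT replicate 1, and that of PSMB5 also without HCT116 INPUT replicate 2.

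Footprints of the catalytic subunits did not follow their RNA past the test. PSMB5 footprints stood at 274 and 256.5 CPM in HCT116, against 276 and 267 CPM in 841CON, nearly the same level in all 4 libraries. PSMB6 footprints stood at 407.5 and 389 CPM in HCT116, against 347 and 304.5 CPM in 841CON, and those of PSMB7 at 322 and 369.5 CPM in HCT116, against 309 and 265 CPM in 841CON. For both genes the HCT116 libraries were the higher ones, by log2 0.29 (SE 0.40) and 0.27 (SE 0.33), and neither passed (edgeR adjusted p = 0.579 and 0.529). PSMB2, a beta subunit without a catalytic site, was the one beta-ring member whose footprints rose, at 858 and 789 CPM in HCT116 against 333 and 312 CPM in 841CON (log2 1.35, SE 0.32, edgeR adjusted p = 0.00136). TE fell for PSMB3, PSMB4 and PSMB7 and did not pass for the other 4 beta subunits. The PSMB4 call was lost in 10 of 14 alternatives, that of PSMB3 in 4 and that of PSMB7 in 1. PSMB1 and PSMB5, which did not pass, had log2 TE changes of −1.31 and −1.50.

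The alpha ring held the widest gap between RNA and footprints. PSMA7 (ENSG00000101182) RNA stood at 578 and 606 CPM in HCT116, against 259 and 169.8 CPM in 841CON, and its footprints at 164 and 179.8 CPM in HCT116, against 827 and 800.5 CPM in 841CON. RNA rose (log2 1.47, SE 0.37) while footprints fell (log2 −2.24, SE 0.38, edgeR adjusted p = 6.21e-05), and the log2 TE change of PSMA7 was −3.71 (SE 0.53, edgeR adjusted p = 2.94e-05). PSMA3 showed the same pattern, with RNA at 72.7 and 69.4 CPM in HCT116 against 13.3 and 40.1 CPM in 841CON, and footprints at 55.1 and 39.3 CPM in HCT116 against 192 and 172 CPM in 841CON. In neither gene did the groups overlap at either level. PSMA6 also rose as RNA and fell in TE, and PSMA1, PSMA4 and PSMA5 passed no test in HCT116.

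Of the cap, the ATPase PSMC3 and the lid subunit PSMD13 showed the same opposed pattern. PSMC3 (ENSG00000165916) RNA stood at 298 and 305 CPM in HCT116, against 138 and 94.1 CPM in 841CON, and its footprints at 49.1 and 59.9 CPM in HCT116, against 131 and 131 CPM in 841CON. The log2 TE change of PSMC3 was −2.65 (SE 0.44, edgeR adjusted p = 0.000122). PSMD13 RNA stood at 248 and 276 CPM in HCT116, against 113 and 154 CPM in 841CON, and its footprints at 64.1 and 53.1 CPM in HCT116, against 242 and 194.5 CPM in 841CON. PSMD13 fell in footprints (log2 −1.90, SE 0.38, edgeR adjusted p = 0.000329) and in TE (log2 −2.86, SE 0.53, edgeR adjusted p = 0.000301). PSMA3, PSMA7, PSMC3 and PSMD13 were thus the 4 members called higher for RNA and lower for both footprints and TE. The share of all genes with such joint calls was not computed, here or for the joint calls below. INPUT enters RNA and TE with opposite signs, so an error in INPUT alone moves both, whereas the footprint values do not contain it.

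PSMB2 and PSMD3 were the 2 members that rose at both levels. PSMD3, a scaffold subunit of the lid, had RNA at 542 and 558 CPM in HCT116 against 151 and 164 CPM in 841CON (log2 1.80, SE 0.35, edgeR adjusted p = 0.000517). PSMD3 footprints stood at 702 and 728 CPM in HCT116, against 363 and 335.5 CPM in 841CON (log2 1.03, SE 0.34, edgeR adjusted p = 0.0140). The groups did not overlap at either level, but the footprint call of PSMD3 was lost with close pairs summed and without 841CON RPF replicate 1, 841CON RPF replicate 2 or HCT116 RPF replicate 2. PSMD7, which pairs with the deubiquitinase PSMD14, had RNA at 167 and 159 CPM in HCT116 against 47.6 and 50.2 CPM in 841CON (log2 1.73, SE 0.30, edgeR adjusted p = 0.000157), with footprints at 136 and 164 CPM in HCT116 against 118 and 115 CPM in 841CON that did not pass (log2 0.37, SE 0.29, edgeR adjusted p = 0.293). Its TE fell (log2 −1.365, SE 0.41, edgeR adjusted p = 0.0111). PSMC5, an ATPase, rose in footprints without a called RNA change, at 434.5 and 411 CPM in HCT116 against 167 and 167 CPM in 841CON (log2 1.34, SE 0.41, edgeR adjusted p = 0.00807), a call lost without 841CON RPF replicate 1. PSMD12, a lid subunit, rose in footprints and was the one member with higher TE (log2 1.56, SE 0.62, edgeR adjusted p = 0.0466). That TE call rested on INPUT at 74.8 and 76.4 CPM in HCT116 against the widely spread 50.5 and 152 CPM in 841CON, and it was lost in 11 of 14 alternatives. The PSMD12 footprint call (log2 1.11, edgeR adjusted p = 0.0359) was lost in 8 of 10.

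Neither the ubiquitin receptors nor the deubiquitinase passed the footprint test in HCT116. ADRM1 (ENSG00000130706), a receptor, had RNA at 376 and 375 CPM in HCT116 against 153 and 127 CPM in 841CON (log2 1.425, SE 0.29, edgeR adjusted p = 0.000746). Its footprints stood at 402 and 390.1 CPM in HCT116, against 363 and 366.5 CPM in 841CON, and its TE was 2.47-fold lower (edgeR adjusted p = 0.0129). PSMD4, another receptor, had RNA at 276 and 299.7 CPM in HCT116 against 256 and 73.7 CPM in 841CON, and footprints at 130.1 and 124 CPM in HCT116 against 123 and 103 CPM in 841CON. PSMD2, the large base subunit, had RNA at 679 and 629.9 CPM in HCT116 against 593 and 487 CPM in 841CON, and footprints at 603 and 647 CPM in HCT116 against 525 and 464 CPM in 841CON. Neither PSMD2 nor PSMD4 passed at any level. PSMD14 footprints stood at 197 and 206 CPM in HCT116, against 97.2 and 93.0 CPM in 841CON, without overlap but short of the threshold (log2 1.09, SE 0.47, edgeR adjusted p = 0.0523), while its RNA, at 104 and 114 CPM in HCT116, lay within the 47.6 and 122 CPM of 841CON.

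With close replicate pairs summed, 10 members were called for RNA, 2 for footprints and 5 for TE in HCT116. The footprint calls fell to 6 without 841CON RPF replicate 1 and to 7 without HCT116 RPF replicate 2. PSMA7 and PSMD13 for footprints, and PSMA3, PSMA7, PSMC3, PSMD11 and PSMD13 for TE, were called under every alternative run. Here and below, member counts under alternatives lack the share of all genes called in the same setting. A drop in them need not be particular to the members.

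**Figure D2:**
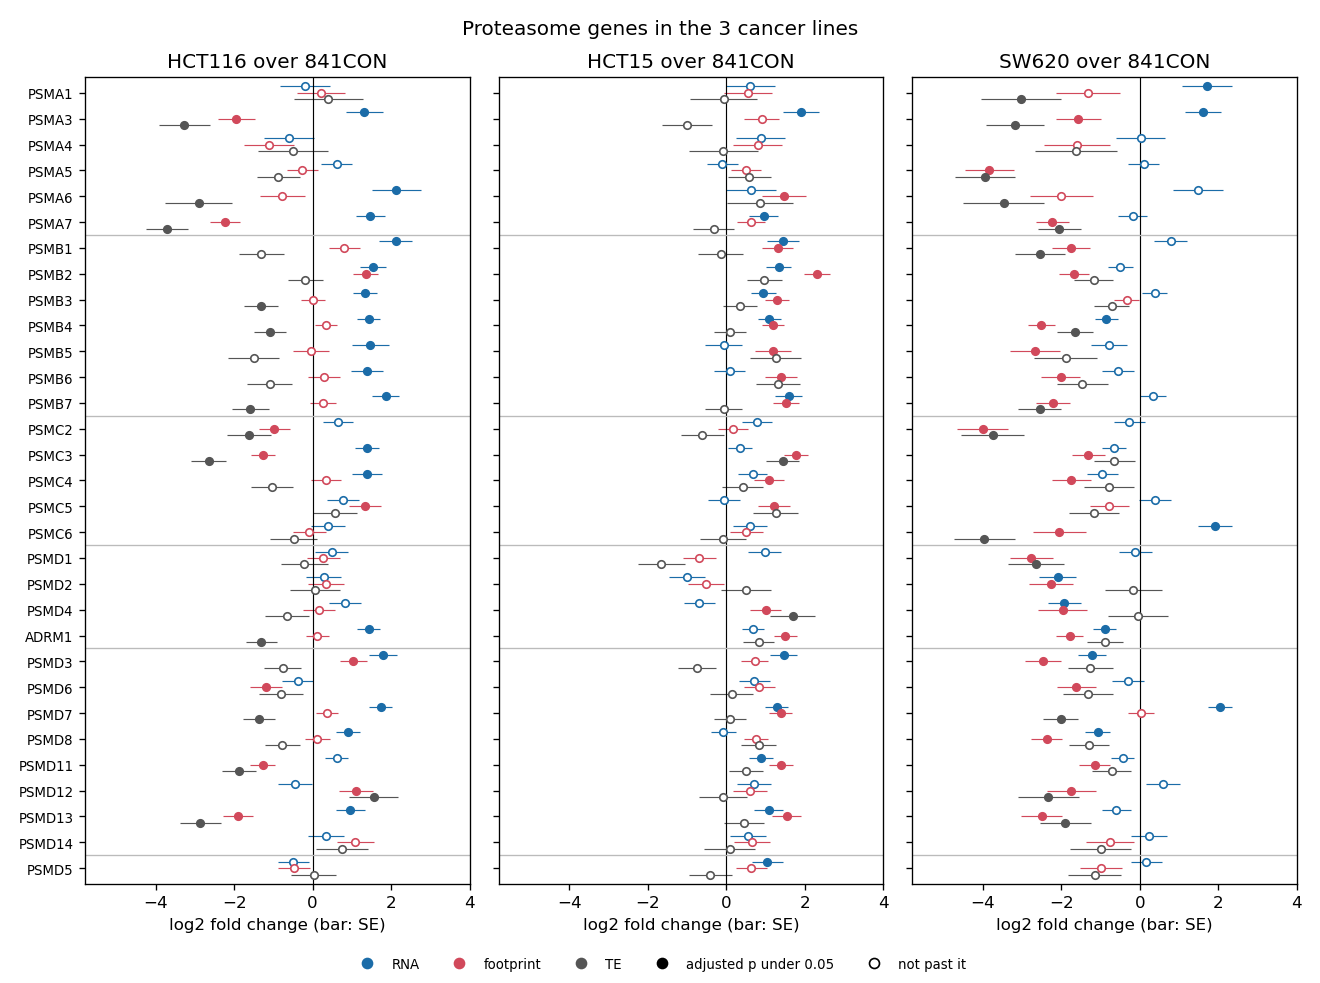
Log2 fold change (x axis) of RNA, footprints and TE for each of the 31 tested members (rows, grouped from top as alpha ring, beta ring, ATPases, base, lid and PSMD5) in HCT116, HCT15 and SW620 over 841CON, with bars for 1 SE and filled points past an adjusted p of 0.05. RNA lies right of 0 for most members in HCT116, footprints lie right of 0 for most in HCT15, and footprints lie left of 0 for 30 of 31 in SW620.

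In parental HCT15 the proteasome genes were higher than in 841CON at both levels, and TE was called for few of them. RNA rose for 12 of 31 members and fell for 0 (16.7% and 18.7% of all genes), with a median log2 change of 0.71 against −0.02 over all genes. Footprints rose for 16 and fell for 0 (28.9% and 21.1% of all genes), with a median of 1.01 against 0.27. TE rose for 2 and fell for 0 (11.6% and 5.08% of 8876 genes tested), with a median of 0.14 against 0.30. Among abundant genes 19.5% rose and 16.1% fell for RNA, 32.8% and 18.6% for footprints and 8.66% and 4.72% for TE. Their medians were 0.11, 0.41 and 0.23. All 7 beta subunits rose in footprints and 5 of them in RNA, and 8 members rose at both levels. The share of all genes that rose at both levels was not computed. These comparisons use the same 841CON libraries as those of HCT116 and SW620.

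The catalytic subunits had more footprints in both HCT15 libraries than in either 841CON library. PSMB5 footprints stood at 580.5 and 663.5 CPM in HCT15, against 276 and 267 CPM in 841CON (log2 1.20, SE 0.46, edgeR adjusted p = 0.0375). PSMB6 footprints stood at 794 and 929.8 CPM in HCT15, against 347 and 304.5 CPM in 841CON (log2 1.40, SE 0.40, edgeR adjusted p = 0.00725). PSMB7 footprints stood at 615 and 1042 CPM in HCT15, against 309 and 265 CPM in 841CON (log2 1.53, SE 0.34, edgeR adjusted p = 0.000986). Their RNA differed among themselves. PSMB7 RNA rose, at 230.0 and 197 CPM in HCT15 against 80.0 and 62.1 CPM in 841CON (log2 1.60, SE 0.34, edgeR adjusted p = 0.00129). PSMB5 RNA, at 139 and 137 CPM in HCT15, lay between the 119.9 and 168 CPM of 841CON, and PSMB6 RNA, at 167 and 168 CPM in HCT15, between the 87.6 and 224 CPM of 841CON. PSMB2 had the smallest adjusted p among the members, with footprints at 1357 and 1841 CPM in HCT15 against 333 and 312 CPM in 841CON (log2 2.31, SE 0.33, edgeR adjusted p = 1.98e-05).

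Cap subunits rose as well. PSMC3 footprints stood at 372 and 533 CPM in HCT15, against 131 and 131 CPM in 841CON (log2 1.79, SE 0.31, edgeR adjusted p = 0.000116), while its RNA stood at 136 and 158 CPM in HCT15, against 138 and 94.1 CPM in 841CON. TE of PSMC3 rose (log2 1.44, SE 0.43, edgeR adjusted p = 0.0266), the opposite direction to HCT116, but this HCT15 call was lost in 9 of 14 alternatives. ADRM1 footprints stood at 979.8 and 1097 CPM in HCT15, against 363 and 366.5 CPM in 841CON (log2 1.51, SE 0.29, edgeR adjusted p = 0.000299), with RNA at 265 and 183 CPM in HCT15 against 153 and 127 CPM in 841CON (edgeR adjusted p = 0.0704). PSMD4 footprints stood at 207 and 247.5 CPM in HCT15, against 123 and 103 CPM in 841CON (log2 1.01, SE 0.40, edgeR adjusted p = 0.0426), and its TE passed (log2 1.69, SE 0.57, edgeR adjusted p = 0.0460) beside RNA at 124 and 77.6 CPM in HCT15 against 256 and 73.7 CPM in 841CON. Among the lid genes, PSMD7 RNA stood at 126 and 113 CPM in HCT15, against 47.6 and 50.2 CPM in 841CON (log2 1.28, SE 0.29, edgeR adjusted p = 0.00216). PSMD3 RNA stood at 492 and 377 CPM in HCT15, against 151 and 164 CPM in 841CON (log2 1.46, SE 0.35, edgeR adjusted p = 0.00292). Neither of these lid genes overlapped between the groups as RNA.

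PSMD2 and PSMD14 did not pass at any level in HCT15. PSMD2 RNA stood at 303 and 233 CPM in HCT15, against 593 and 487 CPM in 841CON (log2 −1.01, SE 0.46, edgeR adjusted p = 0.0954), and its footprints at 293 and 400.4 CPM in HCT15, against 525 and 464 CPM in 841CON. PSMD14 RNA stood at 102 and 155 CPM in HCT15, against 47.6 and 122 CPM in 841CON, and its footprints at 119 and 181 CPM in HCT15, against 97.2 and 93.0 CPM in 841CON. PSMD2 lay below 841CON at both levels without overlap, whereas PSMD14 overlapped as RNA. With close replicate pairs summed, 7 members were called for RNA, 3 for footprints and 0 for TE. The footprint calls fell to 10 and 9 without 841CON RPF replicates 1 and 2. The TE calls were between 0 and 5 when single libraries were left out, with 5 (2 higher, 3 lower) without 841CON INPUT replicate 2, and neither TE call held in every alternative. The footprint calls of PSMB5 and PSMD4 were lost in 8 and 9 of 10 alternatives, and the TE call of PSMD4 in 11 of 14.

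In SW620 footprints of the proteasome genes were lower than in 841CON while RNA moved in both directions. Footprints fell for 23 of 31 members and rose for 0 (18.9% of all genes fell and 18.9% rose), with a median log2 change of −1.78 against −0.09 over all genes. TE fell for 14 and rose for 0 (9.7% and 8.36% of 8396 genes tested), with a median of −1.625 against −0.28. RNA rose for 4 and fell for 6 (21.9% and 22.5% of all genes), with a median of −0.18 against 0.03. Without scaling by trimmed means, and also without the filter on low counts, RNA rose for 6 and fell for 4. Sequencing of SW620 footprints was the thinnest of all groups, at 98043 and 84262 counts. Among abundant genes 33.1% fell and 14.1% rose for footprints, with a median of −0.68, and 17.2% fell and 6.16% rose for TE, with a median of −0.65. For RNA 28.4% of them fell and 23.4% rose. The members' counts therefore stand beside a lower level of abundant genes in general in these 2 libraries, and the part that depth had in it was not tested.

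The footprint values of SW620 rest on few counts. PSMB4, a beta subunit, had 13 and 6 footprint counts, or 113 and 64.1 CPM in SW620, against 555 and 473 CPM in 841CON (log2 −2.51, SE 0.35, edgeR adjusted p = 2.30e-05). PSMA5, an alpha subunit, had 1 and 3 counts, or 8.71 and 32.1 CPM in SW620, against 296 and 261 CPM in 841CON (log2 −3.84, SE 0.63, edgeR adjusted p = 0.000107). PSMC2, an ATPase, had 3 and 0 counts, or 26.1 and 0 CPM in SW620, against 245 and 215 CPM in 841CON (log2 −4.01, SE 0.66, edgeR adjusted p = 0.000116). The SW620 libraries lay below both 841CON libraries for all of these. The catalytic subunits were alike, with 8 and 1 counts for PSMB5, 12 and 5 for PSMB6 and 9 and 4 for PSMB7 in SW620. In CPM, PSMB5 footprints stood at 69.7 and 10.7 in SW620, against 276 and 267 in 841CON (log2 −2.68, SE 0.64, edgeR adjusted p = 0.00304). PSMB6 footprints stood at 104.6 and 53.4 CPM in SW620, against 347 and 304.5 CPM in 841CON (log2 −2.02, SE 0.50, edgeR adjusted p = 0.00395). PSMB7 footprints stood at 78.4 and 42.8 CPM in SW620, against 309 and 265 CPM in 841CON (log2 −2.22, SE 0.43, edgeR adjusted p = 0.000583). The PSMB5 and PSMB6 calls were lost without SW620 RPF replicate 2.

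Some members lay nearer to 841CON. PSMB3 footprints, with 37 and 43 counts the best counted of the set in SW620, stood at 322 and 459.6 CPM in SW620 against 507.5 and 476 CPM in 841CON and did not pass. PSMD7 footprints, at 139 and 96.2 CPM in SW620, straddled the 118 and 115 CPM of 841CON. PSMD14 footprints stood at 95.9 and 10.7 CPM in SW620, against 97.2 and 93.0 CPM in 841CON, and did not pass (edgeR adjusted p = 0.355). The receptors fell, with ADRM1 footprints at 95.9 and 118 CPM in SW620 against 363 and 366.5 CPM in 841CON (log2 −1.78, SE 0.34, edgeR adjusted p = 0.000514). PSMD4 footprints stood at 26.1 and 32.1 CPM in SW620, against 123 and 103 CPM in 841CON, and PSMD2 footprints at 52.3 and 160 CPM in SW620, against 525 and 464 CPM in 841CON.

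INPUT RNA in SW620 rested on more counts. PSMD7 RNA stood at 165 and 240.5 CPM in SW620, against 47.6 and 50.2 CPM in 841CON (log2 2.05, SE 0.30, edgeR adjusted p = 3.07e-05). PSMC6, an ATPase, had RNA at 49.8 and 91.1 CPM in SW620 against 15.2 and 21.6 CPM in 841CON (log2 1.91, SE 0.43, edgeR adjusted p = 0.00155), and PSMA3 had 64.2 and 108 CPM in SW620 against 13.3 and 40.1 CPM in 841CON (log2 1.61, SE 0.47, edgeR adjusted p = 0.00879). These members lay above 841CON in both libraries. In the other direction, PSMD2 RNA stood at 60.9 and 189 CPM in SW620, against 593 and 487 CPM in 841CON (log2 −2.09, SE 0.48, edgeR adjusted p = 0.00162). PSMD4 RNA stood at 38.7 and 46.5 CPM in SW620, against 256 and 73.7 CPM in 841CON (log2 −1.92, SE 0.43, edgeR adjusted p = 0.00124). ADRM1 RNA stood at 62.0 and 87.8 CPM in SW620, against 153 and 127 CPM in 841CON (log2 −0.89, SE 0.29, edgeR adjusted p = 0.0188), and PSMD3 RNA at 47.6 and 87.8 CPM in SW620, against 151 and 164 CPM in 841CON (log2 −1.21, SE 0.36, edgeR adjusted p = 0.00969). The receptors PSMD4 and ADRM1 and the subunit PSMD2 thus fell at both levels, and their TE did not pass. Of these calls, the PSMD4 footprint call was lost in 6 of 10 alternatives, among them DESeq2, no TMM, and either SW620 RPF library or 841CON RPF replicate 1 left out. The ADRM1 RNA call was lost in 5 of 10, among them without SW620 INPUT replicate 1, and the PSMD2 footprint call without SW620 RPF replicate 1.

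TE in SW620 fell for PSMA5 (log2 −3.94, SE 0.76, edgeR adjusted p = 0.00220) and PSMC6 (log2 −3.96, SE 0.78, edgeR adjusted p = 0.00249), and these 2 calls held under every alternative run, although PSMC6 had 2 and 1 footprint counts. PSMC2 TE also fell (log2 −3.745, SE 0.80, edgeR adjusted p = 0.00417). PSMB7 TE fell as well (log2 −2.55, SE 0.56, edgeR adjusted p = 0.00458). The footprint calls fell to 13 without SW620 RPF replicate 2. The TE calls fell to 7 without that library, to 8 without SW620 INPUT replicate 2 and to 9 without 841CON RPF replicate 1. In a fit of the SW620 and 841CON libraries alone 14 members were called for footprints and 2 for TE, and with close pairs summed 4 were called for TE.

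**Figure D3:**
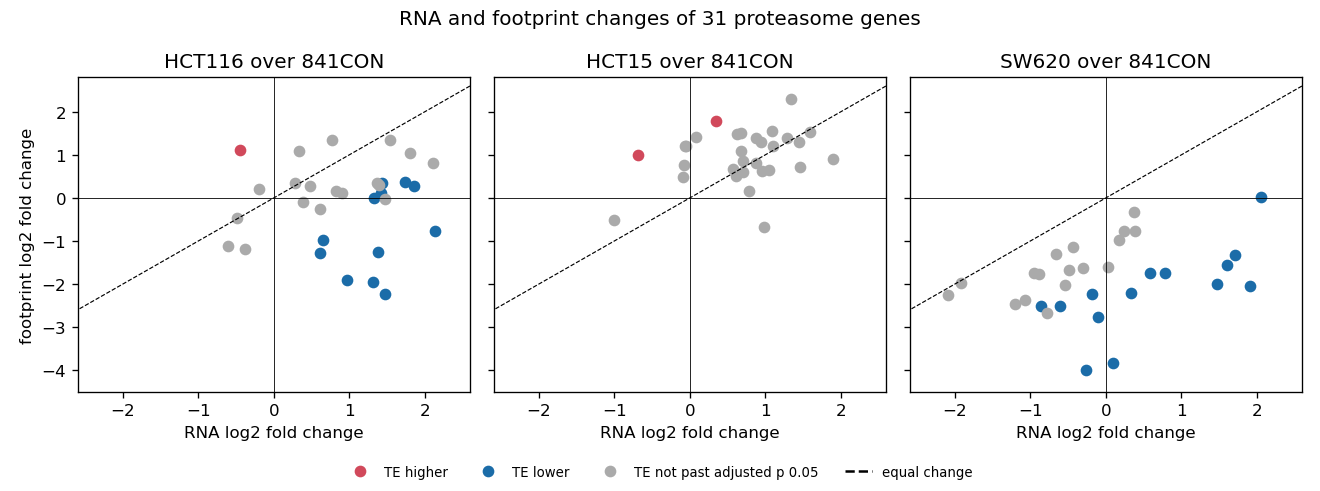
RNA log2 fold change (x axis) against footprint log2 fold change (y axis) of the 31 members in HCT116, HCT15 and SW620 over 841CON, 1 point a gene, coloured by the TE call, with a dashed line of equal change. Points with lower TE lie under the line in HCT116 and SW620, at RNA changes above 0 for all 12 in HCT116, and the 2 with higher TE in HCT15 lie above it.

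The 3 cancer lines differed from each other in TE for 24 of 31 members, by an F test of the line terms in the same edgeR fit, where 52.7% of 8304 genes passed. PSMC3 had the smallest adjusted p (1.04e-05), with log2 TE changes over 841CON of −2.65 for HCT116, 1.44 for HCT15 and −0.65 for SW620, of which that of SW620 did not pass on its own. PSMA7 (edgeR adjusted p = 0.000215) stood at −3.71 for HCT116, −0.32 for HCT15 and −2.05 for SW620. PSMD13 (edgeR adjusted p = 0.000226) stood at −2.86 for HCT116, 0.46 for HCT15 and −1.90 for SW620. The same test passed for the catalytic subunits PSMB5, PSMB6 and PSMB7 and the receptors ADRM1 and PSMD4, and did not pass for PSMD2 (edgeR adjusted p = 0.681), PSMD14 (edgeR adjusted p = 0.147) or PSMD5 (edgeR adjusted p = 0.301). With close pairs summed 12 members were called. Leaving out single libraries gave 21 to 25.

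In the libraries labelled COPS7B, PSMD5 was nearly absent, and few other proteasome genes differed from the vector line. PSMD5 is a chaperone that binds the ATPase PSMC2 while the base of the cap is assembled and is not part of the finished particle. It had 0 and 1 INPUT counts in the COPS7B libraries, against 166 and 103 in the vector line and 930 and 268 in parental HCT15. It had 8 and 13 footprint counts in the COPS7B libraries, against 314 and 339 in the vector line and 211 and 694 in parental HCT15. In CPM, footprints stood at 1.72 and 2.56 in the COPS7B libraries, against 206 and 307 in the vector line. Over summed counts, RNA was 443.5-fold lower than in the vector line (95% interval 78.9 to 17580, from 1 count against 269) and footprints were 115-fold lower (74.7 to 187). Both passed in the fit (edgeR adjusted p = 1.35e-07 for RNA and 1.17e-07 for footprints) and under every alternative run. Among the other populations PSMD5 RNA stood between 48.5 and 211 CPM and footprints between 32.1 and 307 CPM, above the COPS7B libraries in every library. PSMD5 was also the one member among the 138 genes listed above as on in the vector line and off in the COPS7B libraries.

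PSMD5 (ENSG00000095261) lies on chromosome 9 at 120816053 to 120842922, minus strand (GRCh38.p14). The 250 bases before its start, chr9:120842923-120843172 on the minus strand, are shown because PSMD5 had the largest fold difference of the set between the COPS7B and vector libraries, with the TGACNNNGC match in capitals.
PSMD5: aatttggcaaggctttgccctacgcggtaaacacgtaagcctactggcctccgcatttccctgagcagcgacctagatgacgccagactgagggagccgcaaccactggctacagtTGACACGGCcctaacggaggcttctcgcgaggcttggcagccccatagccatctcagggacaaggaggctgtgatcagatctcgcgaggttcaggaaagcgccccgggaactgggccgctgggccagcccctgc
The window is 61.6% G and C and holds 16 CG dinucleotides, more than in 59% of the windows of all genes, whose median is 11. Methylation was not analysed here.

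**Figure D4:**
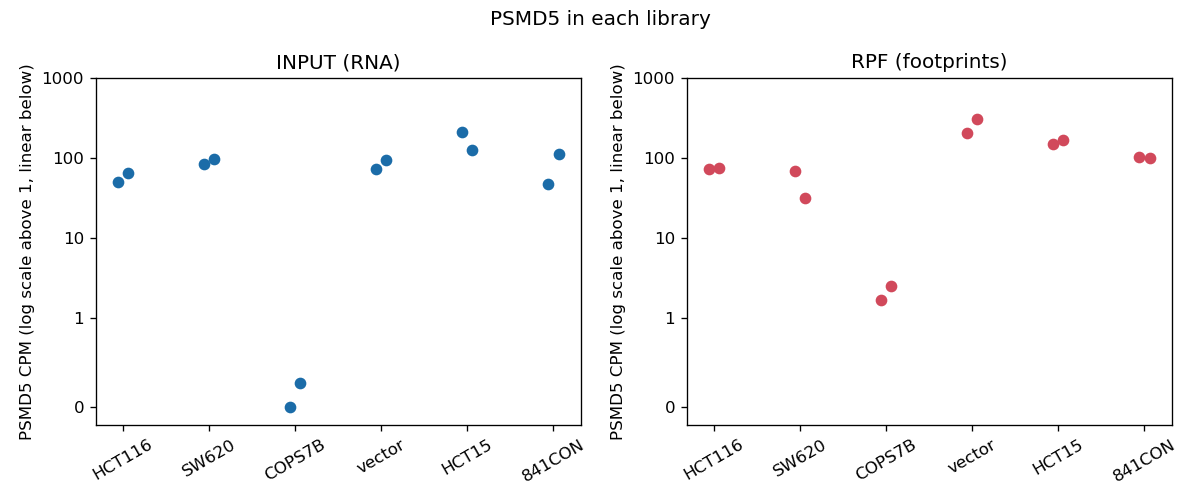
PSMD5 level in each INPUT and RPF library (y axis, CPM, logarithmic above 1 and linear below), by cell population. The 2 COPS7B libraries stand at 0 and 0.28 CPM in INPUT and at 1.72 and 2.56 CPM in RPF, below all other libraries.

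Of the other tested members, 3 fell as RNA and 4 as footprints in the libraries labelled COPS7B, and 0 rose. With PSMD5 counted, RNA fell for 4 of 31 (8.31% of all genes fell and 9.18% rose), with a median log2 change of −0.54 against 0.08 over all genes, and footprints fell for 5 (9.42% fell and 7.92% rose), with a median of −0.54 against 0.05. Among abundant genes 10.7% fell and 3.65% rose for RNA, and 13.4% fell and 3.72% rose for footprints. The shares called were thus close to those of abundant genes, whose median log2 changes were −0.099 for RNA and −0.23 for footprints. Of the 31 members, 29 had an RNA change below 0, and the share of all genes below 0 was not computed. ADRM1 RNA stood at 134 and 123 CPM in the COPS7B libraries, against 215.5 and 303 CPM in the vector line (log2 −1.01, SE 0.29, edgeR adjusted p = 0.0181). Its footprints stood at 432 and 428 CPM in the COPS7B libraries, against 1374 and 1144 CPM in the vector line (log2 −1.55, SE 0.29, edgeR adjusted p = 0.000939). PSMD13 RNA stood at 101 and 107 CPM in the COPS7B libraries, against 193 and 321 CPM in the vector line (log2 −1.30, SE 0.37, edgeR adjusted p = 0.0173). PSMD13 footprints stood at 129.5 and 137 CPM in the COPS7B libraries, against 315 and 350.0 CPM in the vector line (log2 −1.32, SE 0.37, edgeR adjusted p = 0.0172). For ADRM1 and PSMD13 the groups did not overlap at either level, and PSMD7 also fell as RNA and PSMB3 and PSMB4 as footprints, all by under 2-fold.

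The catalytic subunits and PSMD14 did not pass at any level between the COPS7B and vector libraries. PSMB5 footprints stood at 218 and 224 CPM in the COPS7B libraries, against 309.7 and 576 CPM in the vector line (log2 −1.001, SE 0.46, edgeR adjusted p = 0.153). PSMB6 footprints stood at 292.5 and 292 CPM in the COPS7B libraries, against 547 and 279 CPM in the vector line, and PSMB7 footprints at 326 and 304 CPM in the COPS7B libraries, against 384.5 and 540.0 CPM in the vector line. PSMD14 RNA stood at 47.3 and 54.7 CPM in the COPS7B libraries, against 115 and 115.5 CPM in the vector line (log2 −1.18, SE 0.47, edgeR adjusted p = 0.0987). PSMD2 was on the other side of 0, at 313 and 236 CPM as RNA in the COPS7B libraries against 149 and 255 CPM in the vector line, and PSMD4 RNA stood at 116 and 107 CPM in the COPS7B libraries against 109 and 123 CPM in the vector line. TE was called for 0 of 30 members tested, with 0 at an unadjusted p under 0.05. Over all 9542 genes edgeR called 0 (0%), with 132 at an unadjusted p under 0.05. DESeq2 called 0 members, with 1 at an unadjusted p under 0.05. PSMD5 could not be tested for TE, because its INPUT counts fell under the minimum mean of 10.

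With close pairs summed, or without vector INPUT replicate 2 or either COPS7B INPUT library, 1 member was called for RNA, PSMD5. Footprint calls numbered 2 or 3 without any single library of the comparison, and 1 with close pairs summed.

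**Figure D5:**
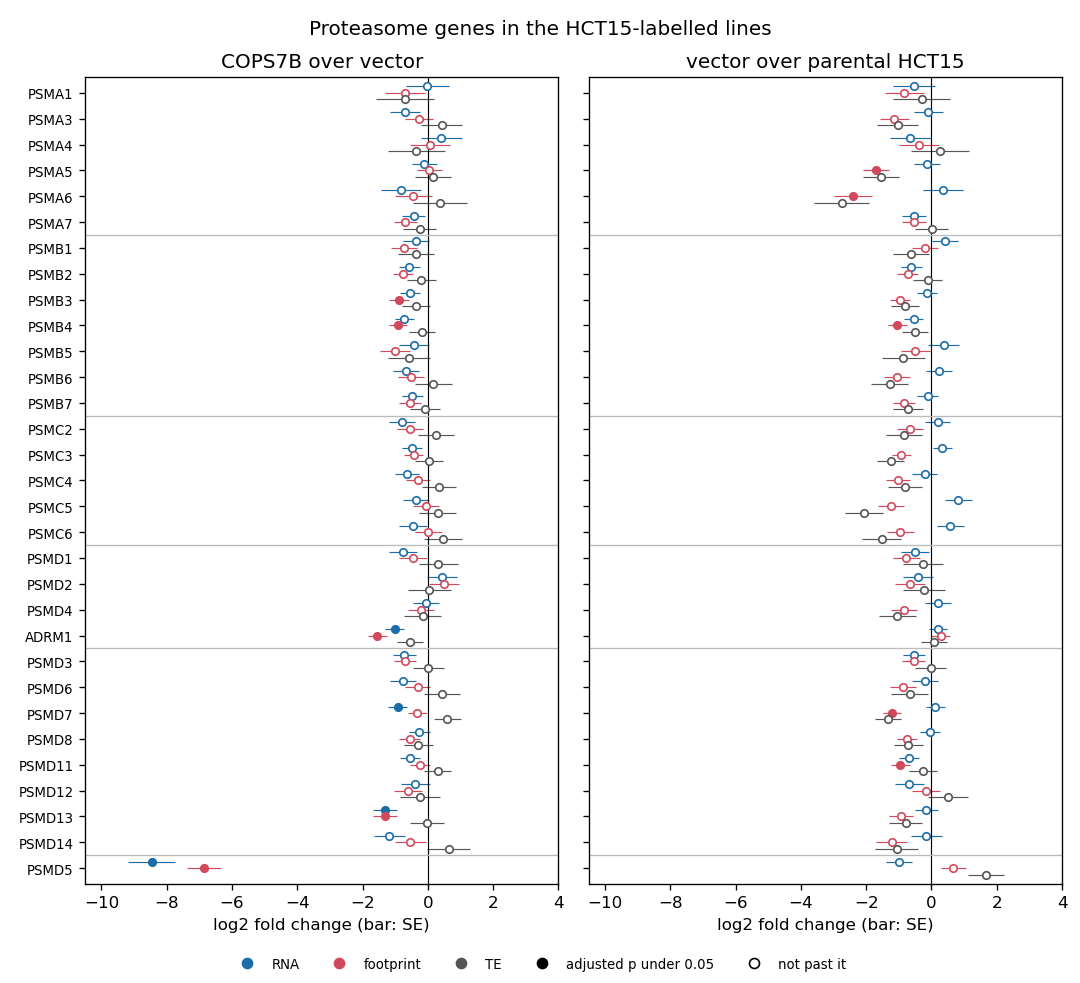
Log2 fold change (x axis) of RNA, footprints and TE for each tested member (rows) in the COPS7B libraries over the vector line, left, and in the vector line over parental HCT15, right, with bars for 1 SE and filled points past an adjusted p of 0.05. PSMD5 stands alone at −8.47 for RNA and −6.86 for footprints on the left, and 5 footprint points are filled below 0 on the right.

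The vector line, the control of the COPS7B comparison, itself differed from parental HCT15 in footprints of proteasome genes. Footprints fell for 5 of 31 members and rose for 0 (3.03% and 7.44% of all genes), with a median log2 change of −0.85 against 0 over all genes, and 19 members had an unadjusted p under 0.05, as had 3263 of 11938 genes. Among abundant genes 6.37% fell and 8.98% rose, with a median of −0.25. RNA was called for 0 by edgeR (2 at an unadjusted p under 0.05, as were 1391 of 11938 genes), against 0.067% of all genes lower and 0.603% higher and 0% and 1.41% of abundant genes, and for 0 by DESeq2 (5 at an unadjusted p under 0.05). TE was called for 0 by edgeR (8 at an unadjusted p under 0.05, as were 1119 of 9738 genes), against 0.0205% lower and 0.154% higher of all genes and 0.0337% and 0.101% of abundant genes, and for 2, both lower, by DESeq2. PSMA5 footprints stood at 89.9 and 155 CPM in the vector line, against 299 and 485 CPM in parental HCT15 (log2 −1.69, SE 0.40, edgeR adjusted p = 0.0118). PSMD7 footprints stood at 131 and 132 CPM in the vector line, against 261 and 347.5 CPM in parental HCT15 (log2 −1.21, SE 0.29, edgeR adjusted p = 0.0128). PSMA6 footprints stood at 50.5 and 93.2 CPM in the vector line, against 269.7 and 485 CPM in parental HCT15 (log2 −2.40, SE 0.58, edgeR adjusted p = 0.0140). None of these 3 genes, picked by their adjusted p, overlapped between the groups, and PSMB4 and PSMD11 also fell. The count of footprint calls rested on single libraries, being 0 without HCT15 RPF replicate 2 or vector RPF replicate 1, 2 without vector RPF replicate 2 and 9 without HCT15 RPF replicate 1. The COPS7B and parental comparisons share the vector libraries, so an error in these moves both in opposite directions.

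The other 2 members, PSMA2 and PSMC1, did not pass the filter. PSMA2, an alpha subunit, had 0 footprint counts in 10 of 12 RPF libraries and 1 in each of the 2 COPS7B libraries, while its INPUT counts lay between 0 and 251. PSMC1, an ATPase, had at most 10 footprint counts in any library, in the COPS7B group, and at most 86 INPUT counts. Summed over both INPUT libraries, PSMC1 had 132 counts in the vector line and 122 in COPS7B. The sums were 31 in parental HCT15, 6 in HCT116, 7 in SW620 and 0 in 841CON. Its footprint counts summed to 17 in COPS7B, 3 in the vector line and 0 in the other populations. This split was not tested. Both encode obligate subunits of the particle, and how the counting treated reads shared with near-identical copies is not given in the sources used here, so their values are uncertain.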

How the data were processed

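Ribosome footprints and INPUT RNA were measured in 24 libraries of 12 groups, taken from the sample labels. The values used are raw counts per Ensembl gene as deposited by the authors, 1 table a library. Per the submitters' processing notes, the tools were STAR 2.7.9, HTSeq 2.0.2 and cutadapt 3.5, and the build was GRCh38. Not given in the sources used here are their roles, the annotation, the strand setting and how multiply aligned reads were treated, so overlapping genes, antisense genes and near-identical copies are uncertain. The 5 summary lines that name no gene, in 8 libraries, held 53.6% to 90.8% of their reads and were left out.

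Genes were kept at edgeR's expression filter (minimum count 10) within INPUT and within RPF. Counts were scaled by trimmed means (TMM) within each assay, with library sizes taken over the 11938 kept genes, and CPM are counts per 1000000 of those counts after that scaling. One edgeR 4.0.16 quasi-likelihood fit (R 4.3.3) of all 24 libraries left 12 residual degrees of freedom. TE was the assay-by-line interaction, tested where INPUT counts averaged 10 or more in each of the lines compared. P-values were two-sided and Benjamini-Hochberg adjusted over all genes tested. The procedure was tested on simulated data. Alternatives were no TMM, DESeq2 1.42.0, no filter, a replicate block, close pairs summed, only the compared libraries and leaving out each library. Crossed SW620 numbers and the background of abundant genes were added after seeing the data.

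Members and lists were chosen with earlier results of these data known. Per-library values are given for PSMB5, PSMB6, PSMB7, PSMD14, PSMD2, PSMD4 and ADRM1 and, in each comparison and measure, for up to 3 called members in each direction with the smallest adjusted p. Other per-library values, such as those of PSMB3 and PSMD7 footprints in SW620 and of the untested members, were chosen after they were seen. Members were named by the order of the list that chose them, and coordinates and promoters by symbol from RefSeq. The planned companion gene lists, cell markers and footprint density per coding length were not analysed here, because they need identifiers or protein lengths that the tables used here do not hold.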

Additional observations from a re-analysis of the deposited data

Results flagged for a closer look

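Log2 TE changes against 841CON differed among HCT116, HCT15 and SW620 for 24 of the 31 tested members, by the F test of edgeR's quasi-likelihood fit with adjustment over all genes, beside 52.7% of all genes tested. PSMD2, PSMD14 and PSMD5 were among the 7 that did not pass. For the 8 that passed among the catalytic subunits, the receptors and the 3 members with the smallest adjusted p, the value was 1.04e-05 for PSMC3, 0.000215 for PSMA7, 0.000226 for PSMD13, 0.000818 for ADRM1, 0.00171 for PSMB6, 0.00234 for PSMB5, 0.00272 for PSMB7 and 0.00633 for PSMD4. PSMD4 was no longer called with close replicate pairs summed, and the other 7 were called under every alternative run. The log2 changes share the 841CON libraries, whose group means cancel in the F test, though these libraries still enter the shared spread of the fit. Culture media differed between the lines, so line and medium cannot be told apart.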

How the results depend on the processing

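No called member changed sign under any alternative run. Counts of members called that moved by over 1.5 times were as follows, without the share of all genes called in the same setting. With close replicate pairs summed, RNA calls numbered 10 for HCT116, 7 for HCT15, 6 for SW620 and 1 for the COPS7B libraries, footprint calls 2 in HCT116, 3 in HCT15, 1 in the COPS7B libraries and 0 in the vector line, and TE calls 5 for HCT116, 0 for HCT15, 4 for SW620 and 12 for the F test. With only the compared libraries, RNA calls numbered 7 in HCT15, 5 in SW620 and 8 in the COPS7B libraries, footprint calls 9 in HCT15, 14 in SW620 and 1 in the vector line, and TE calls 0 in HCT15 and 2 in SW620. Without TMM there were 1 TE call in HCT15, 14 footprint calls in SW620 and 3 in the COPS7B libraries. DESeq2 gave 9 footprint and 2 TE calls in the vector line. Without the low-count filter the COPS7B libraries had 2 RNA and 3 footprint calls. Without single libraries, RNA calls ranged over 13 to 20 for HCT116, 10 to 16 for HCT15, 7 to 12 for SW620, 1 to 3 for the COPS7B libraries and 0 to 0 for the vector line. Footprint calls ranged over 6 to 9, 9 to 15, 13 to 20, 2 to 3 and 0 to 9 in the same order, and TE calls over 9 to 15, 0 to 5, 7 to 16, 0 to 0 and 0 to 3, with 21 to 25 in the F test. Where leaving out a library left 1, it was taken to vary as the rest of the libraries do.

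The main fit did not pair INPUT with RPF libraries by replicate number. Deviations of same-numbered libraries correlated at 0.226 for the vector line and between −0.119 and 0.015 for the other 5 populations, over 11938 genes. A low correlation cannot show that libraries were unpaired, so pairing is not settled. With the replicate block there were 1 TE call in HCT15 (lower), 3 footprint calls in the COPS7B libraries and 2 in the vector line, and the other counts stayed within 1.5 times. With crossed numbers in SW620, 14 members were called for TE.

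Without TMM the median footprint change over all genes moved to 0.50 in HCT15, 0.11 in SW620 and 0.32 in the COPS7B libraries and to 0 in HCT116. Relative to that median the members stood at 0.74, −1.295, −0.59 and 0.50, against 0.74, −1.69, −0.59 and 0.37 with TMM. The planned spread of footprint density across the members was not run. SW620 footprints had the fewest counts, a median of 8 and 4 over the 31 tested members, and limit every SW620 footprint and TE value.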
